A study of Homo sapiens with 6 samples.

Results

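The metallothionein genes MT2A, MT1E, MT1F, MT1G, MT1M and MT1X and the gene of their metal-sensing activator, MTF1, were followed in NB4 cells, a human acute promyelocytic leukaemia line, with and without arsenic trioxide. The 7 genes were chosen by symbol, and 5 of them were among the 23858 genes listed in the authors' deposited table. MT1E and MT1M were not analysed here, since the choice by symbol takes a gene without values to lie below the read limit of the table. The lowest sum over the libraries that the table lists is 21 reads. MT2A, MT1F, MT1X and MTF1 were among the 16803 genes tested, and MT1G, with a mean of 0.318 RPKM (reads scaled to exon length and library size), lay below the test's minimum mean of 1 RPKM.

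The study compared 3 control libraries of NB4 cells with 3 libraries of the same line exposed to arsenic trioxide for 6 h, all made from ribosome-depleted total RNA. NB4 carries the PML-RARA fusion, so every library, controls included, comes from cells with that fusion. The sources used here give neither the dose nor what the controls received. The labels do not say that the libraries of a group came from separate cultures, so each p-value measures the spread between these libraries, which may be technical.

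Metallothioneins are small proteins so rich in cysteine that their thiol groups hold zinc and copper and also bind toxic metals and metalloids. MTF1 is a zinc finger protein that is activated by free zinc, enters the nucleus and binds short metal response elements in the promoters of metallothionein genes and of the zinc exporter SLC30A1. Trivalent arsenic, the form given as arsenic trioxide in acute promyelocytic leukaemia, is known for binding thiols.

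The coding sequences show how alike the genes are whose reads are compared, and they are printed 5′ to 3′ from the GENCODE 29 transcripts, without the stop codon, with every cysteine codon in capitals.
MT2A: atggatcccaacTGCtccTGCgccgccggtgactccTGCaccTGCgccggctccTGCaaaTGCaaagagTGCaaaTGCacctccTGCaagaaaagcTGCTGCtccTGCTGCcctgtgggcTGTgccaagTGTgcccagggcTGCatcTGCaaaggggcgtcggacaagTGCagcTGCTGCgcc
MT1F: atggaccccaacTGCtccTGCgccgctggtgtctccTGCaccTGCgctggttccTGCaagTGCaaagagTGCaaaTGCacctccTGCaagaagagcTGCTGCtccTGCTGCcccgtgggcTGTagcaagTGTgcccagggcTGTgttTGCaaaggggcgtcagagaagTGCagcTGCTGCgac
MT1X: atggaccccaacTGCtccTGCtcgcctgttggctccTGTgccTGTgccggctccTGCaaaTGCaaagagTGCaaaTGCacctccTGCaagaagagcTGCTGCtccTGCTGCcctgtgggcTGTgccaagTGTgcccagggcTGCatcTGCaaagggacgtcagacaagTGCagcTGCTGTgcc
MT1G: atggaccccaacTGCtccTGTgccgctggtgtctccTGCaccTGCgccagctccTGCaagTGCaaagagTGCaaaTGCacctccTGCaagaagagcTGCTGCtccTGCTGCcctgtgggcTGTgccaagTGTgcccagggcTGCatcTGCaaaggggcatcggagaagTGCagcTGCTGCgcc
Each of the 4 sequences has 183 bases in 61 codons over 3 coding exons, and 20 codons, 32.8%, encode cysteine. In MTF1 21 of 753 codons, 2.8%, did. MT2A and MT1G were the closest pair of the 4, identical at 95.1% of positions with 9 differing, and MT1F and MT1X the most distant, identical at 88.5% with 21 differing. MT2A differed from MT1F at 16 positions and from MT1X at 14.

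This likeness bears on how reads were divided between the genes, because the sources used here do not give how reads that match several genes were handled. Along the main transcript of MT2A 4.9% of all stretches of 50 bases also occurred in a transcript of another gene, and 0.0% of stretches of 75 bases did. For MT1F the shares were 3.6% at 50 bases and 0.0% at 75. MT1X stood apart, with 45.1% at 50 bases, 31.6% at 75 and 19.1% at 100. Most of its shared stretches of 50 bases, 117 of 181, were shared with AC026461.1, a transcript annotated over MT1X on the same strand that was not analysed here. MT1G shared 20.2% at 50 bases and 6.6% at 75, mostly with MT1X. For MTF1 the share was 0.9% at 50 bases.

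The promoter is shown because the metal response element is the site through which MTF1 acts. RefSeq promoter windows of GRCh38.p14 were matched by symbol for 3 of the 7 genes, MT2A, MT1X and MTF1. The 250 bases before the RefSeq start were searched on both strands for the core of the metal response element, written TGCACNC or TGCGCNC. The window of MT2A lies inside the untranslated first exon of a longer GENCODE transcript, so only its sites are printed, with at most 3 bases on each side and the core in capitals.
MT2A, chr16:56608335-56608347, plus strand: cgcTGCACCCagc
MT2A, chr16:56608413-56608425, plus strand: cccGTGTGCAgag
MT2A, chr16:56608428-56608440, plus strand: gggTGCGCCCggc
MT2A, chr16:56608442-56608454, plus strand: cagTGCGCGCggc
MT2A, chr16:56608493-56608505, plus strand: ggcGTGTGCAggc
MT2A, chr16:56608527-56608539, plus strand: tttTGCACTCgtc
MT2A, chr16:56608573-56608583, plus strand: cgcTGCACTCc
The corresponding window of MT1X is printed up to the earliest GENCODE start, again with the cores in capitals.
MT1X, chr16:56682220-56682423, plus strand: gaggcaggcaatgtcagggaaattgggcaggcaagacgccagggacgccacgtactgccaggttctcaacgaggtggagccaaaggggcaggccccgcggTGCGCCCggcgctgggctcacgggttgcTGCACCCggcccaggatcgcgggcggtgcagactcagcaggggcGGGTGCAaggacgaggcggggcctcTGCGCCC
MT2A held 7 cores, and 11 of the 35116 promoters of the table, 0.0313%, held at least as many. MT1X held 4 cores, and 130 promoters, 0.37%, held at least as many. MTF1 held 0, SLC30A1 held 1 and the zinc importer SLC39A10 held 0. Of all promoters, 24.8% held at least 1 core. A match of letters describes the window and is not evidence of binding.

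Other motifs were counted in the same windows. MT2A and MT1X each held 1 TATAAA, starting 29 and 30 bases before the start, which 10.7% of all promoters hold. Both held 2 copies of GGGCGG, which at least once is in 42.6% of promoters, and in MT1X 1 of them overlapped a metal response core by its last bases. Both also held 1 TGACNNNGC, the core of the antioxidant response element, which is in 10.9% of promoters. The paired heat shock motif (GAANNTTC or TTCNNGAA) was found 0 times in both windows, and 11.6% of promoters hold it.

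**Figure D1:**
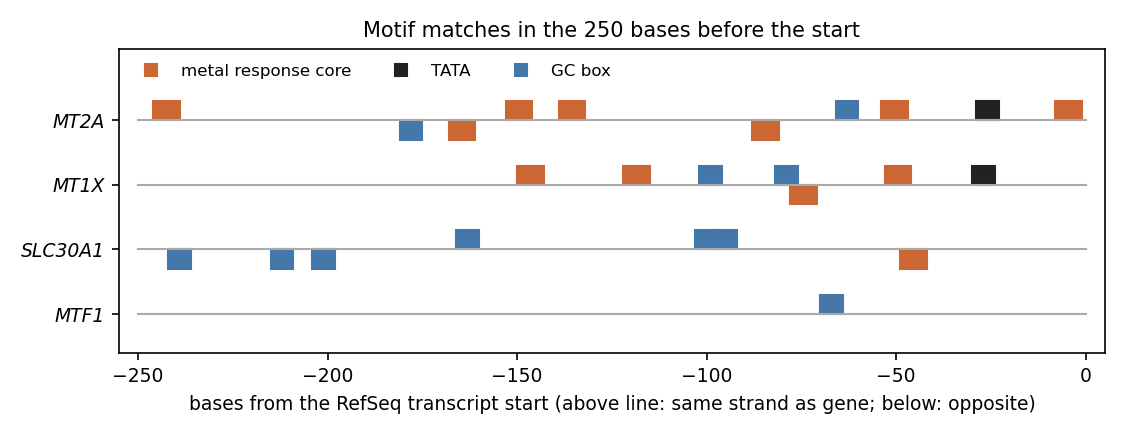
Motif matches in the 250 bases before the RefSeq transcript start of MT2A, MT1X, SLC30A1 and MTF1. The horizontal axis is the distance from the start in bases, boxes above a line are on the strand of the gene and boxes below on the opposite strand. MT2A carries 7 metal response cores, MT1X 4, SLC30A1 1 and MTF1 0.

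Library depth, taken as the read total by which RPKM divides, ran from 19361333 to 22609019 reads and the groups overlapped. These totals were recovered from the RPKM, after duplicate removal, and are not the number of reads sequenced. Promyelocyte markers were chosen after their values were seen, so they are no test of identity as NB4. Of 7 such markers ELANE was not listed and 6 were. Their summed level was 1028 to 1408 RPKM in controls and 687 to 1020 RPKM in treated libraries, led by the granule enzyme MPO (940.0 ± 131.7 and 676.8 ± 123.2 RPKM, SD, n = 3). Of the 6, only the granule protein AZU1 was called, as lower (50.5 and 25.1 RPKM, limma-trend adjusted p = 0.00258). The summed level of the listed T cell markers (1 of 4) was 3.04 to 4.22 RPKM, of erythroid markers (1 of 5) 0.0853 to 0.387 RPKM and of stromal and epithelial markers (2 of 6) 4.83 to 7.12 RPKM over all 6 libraries. The B cell markers (2 of 4 listed) summed to 3.05 to 3.26 RPKM in controls and 5.98 to 6.26 RPKM in treated libraries. The part of these markers in the metallothionein results was not tested, and in bulk RNA a change in the make-up of the cells and a change of RNA per cell cannot be told apart.

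All 4 listed metallothionein genes of the choice had higher levels in each arsenic trioxide library than in any control, and MTF1 had lower ones. MT2A, the most abundant member, rose 6.74-fold in the ratio of group means, MT1F 25-fold and MT1X 22.2-fold. MT1G went from 0 reads in every control to a few reads in every treated library. It was listed only through its treated reads, so its separation of the groups is no independent support. In limma-trend with Benjamini-Hochberg adjustment over all tested genes, 3 of the 4 tested genes (MT2A, MT1F and MT1X) were called higher and 0 lower at an adjusted p under 0.05. Of all tested genes, 12% were called higher, 13.4% lower and 25.4% in either direction. The treated libraries lay above all controls for 21.9% of tested genes and below all controls for 22.6%. The authors' deposited table has an adjusted p under 0.05 for all 5 listed genes, as it has for 25.3% of the genes to which it gives one.

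**Figure D2:**
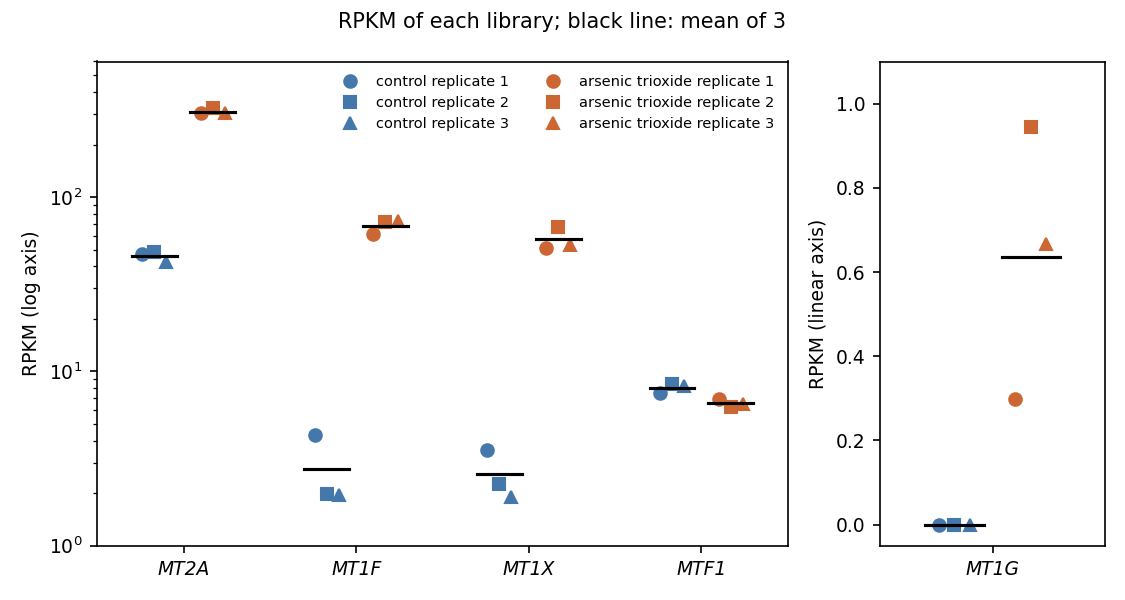
RPKM of MT2A, MT1F, MT1X and MTF1 (left, log axis) and of MT1G (right, linear axis) in each library. Each point is 1 library, with the shape giving its replicate number, and the black line is the mean of 3. MT2A, MT1F and MT1X are higher in all 3 treated libraries, MTF1 is lower in them by a small step, and MT1G is at 0 in all 3 controls.

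MT2A encodes a metallothionein that is made in many human tissues. It lies on chromosome 16 from 56608199 to 56609497 on the plus strand of GRCh38 (ENSG00000125148), and its coding sequence spans all 3 exons of the main transcript. Its level was 47.4, 48.3 and 42.2 RPKM in control libraries 1 to 3 and 303.2, 323.4 and 302.8 RPKM in arsenic trioxide libraries 1 to 3. The 3 libraries within each group lay close together and the groups were far apart. The group means were 46.0 ± 3.29 and 309.8 ± 11.8 RPKM (SD, n = 3), and any treated library exceeded any control library by 6.26-fold to 7.66-fold. The fitted log2 fold change of RPKM + 1 was 2.73 ± 0.07 (SE, limma-trend with Benjamini-Hochberg adjustment, adjusted p = 2.13e-05), which ranked 13 among all rises.

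Behind these values were 1243, 1216 and 1240 reads in controls and 8783, 8900 and 8644 reads in treated libraries. Before treatment MT2A already exceeded 94.8% of tested genes in mean control RPKM, a scale that corrects for exon length. The coefficient of variation between libraries was 7.16% in controls and 3.80% in treated cells, the smallest values of the tested metallothioneins. Leaving out any 1 library moved the log2 fold change only between 2.67 and 2.76. The authors' deposited table gives MT2A a log2 fold change of 2.74 with an adjusted p of 1.17e-175.

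MT1F encodes a type 1 metallothionein of the same cluster. It lies on chromosome 16 from 56657694 to 56660698 on the plus strand (ENSG00000198417). Its level was 4.32, 1.97 and 1.94 RPKM in control libraries 1 to 3 and 61.1, 72.0 and 73.0 RPKM in treated libraries 1 to 3. Control library 1 stood above the other controls, and the groups did not overlap. That library had 165 reads against 72 and 83, and its 95% Poisson interval of 3.69 to 5.04 RPKM, which covers counting error only, did not reach the intervals of the others (1.54 to 2.48 and 1.55 to 2.41 RPKM).

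The MT1F means were 2.75 ± 1.37 and 68.7 ± 6.59 RPKM (SD, n = 3). The log2 fold change was 4.27 ± 0.23 (SE, limma-trend with Benjamini-Hochberg adjustment, adjusted p = 0.000229). Because control library 1 was high, the ratio of single treated to single control libraries ran from 14.1-fold to 37.5-fold, a far wider band than that of MT2A. The coefficient of variation of MT1F was 49.8% in controls and 9.59% in treated libraries. With each library left out in turn the log2 fold change was 4.13 to 4.55. The authors' deposited table gives MT1F a log2 fold change of 4.62 with an adjusted p of 4.78e-29. In controls MT1F exceeded 28.4% of tested genes in mean RPKM.

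MT1X, another type 1 gene, lies on chromosome 16 from 56682424 to 56684196 on the plus strand (ENSG00000187193). Its level was 3.55, 2.27 and 1.90 RPKM in control libraries 1 to 3 and 50.7, 67.2 and 53.4 RPKM in treated libraries 1 to 3. As for MT1F, control library 1 was the highest control, with a 95% Poisson interval of 2.96 to 4.22 RPKM against 1.80 to 2.84 and 1.49 to 2.37 RPKM. Treated library 2 was the highest treated library, and the groups did not overlap. The means were 2.57 ± 0.865 and 57.1 ± 8.85 RPKM (SD, n = 3), and the log2 fold change was 4.04 ± 0.18 (SE, limma-trend with Benjamini-Hochberg adjustment, adjusted p = 0.000135).

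The MT1X reads numbered 127, 78 and 76 in controls and 2006, 2525 and 2081 in treated libraries. Its coefficient of variation was 33.6% in controls and 15.5% in treated libraries, the largest of the treated values among the tested metallothioneins. Leaving out each library gave log2 fold changes of 3.90 to 4.23. The authors' deposited table gives MT1X a log2 fold change of 4.46 with an adjusted p of 2.31e-133. Reads from the overlapping AC026461.1 cannot be told apart from those of MT1X where the sequences are the same.

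MT1G, a type 1 gene on the minus strand of chromosome 16 from 56666731 to 56668065 (ENSG00000125144), was the least abundant listed metallothionein of the choice. It had 0 reads in each control library and 5, 15 and 11 reads in treated libraries 1 to 3. These treated counts correspond to 0.299, 0.944 and 0.667 RPKM (0.637 ± 0.324, SD, n = 3), and every treated library was above every control. Here 3 reads per library were taken as the limit for a count of 0, or 0.177 to 0.207 RPKM in the controls. The observed treated mean of MT1G was 3.29-fold the mean of these limits. This ratio leaves out the counting error of the treated reads, so it is no lower bound. Treated library 1, at 0.299 RPKM, lay nearest to the limit. Its Poisson interval, computed as for MT1F, was 0.0971 to 0.698 RPKM and reached below the limit. The intervals of treated libraries 2 and 3, 0.528 to 1.56 and 0.333 to 1.19 RPKM, did not. The same interval gives a count of 0 an upper end of 3.69 reads. MT1G was tested only when the minimum of 1 RPKM was dropped, where limma-trend with Benjamini-Hochberg adjustment gave an adjusted p of 0.0162. The authors' deposited table gives MT1G a log2 fold change of 5.73 with an adjusted p of 0.00108. MT1G was listed only through its treated reads, so neither adjusted p is independent support.

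Besides these 4, the family has 1 more listed gene, the pseudogene MT1XP1 on chromosome 1 from 16241213 to 16241398. It had 3, 8 and 2 reads in controls and 14, 8 and 7 reads in treated libraries. The groups overlapped, and control library 2 was the highest control. The log2 fold change of 0.69 had a limma-trend adjusted p of 0.16 with Benjamini-Hochberg adjustment, and 0.0417 without control library 2. Stretches shared with other genes were not counted along MT1XP1, so whether reads of MT1X were assigned to it was not tested. Of the 21 metallothionein genes and pseudogenes in GENCODE 29, the other 16 were not analysed here.

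Within the family the shares of the genes differed between the groups as well as the total. The summed level of the 5 listed family genes was 56.0, 54.8 and 46.5 RPKM in controls and 418.7, 465.6 and 431.6 RPKM in treated libraries, 8.36-fold higher in the ratio of means. In reads, the family took 69.7 ± 7.17 reads per 1000000 in controls and 634 ± 38.7 in treated libraries (SD, n = 3). These sums follow MT2A, which supplied 263.8 of the 386.2 RPKM added, against 65.9 from MT1F and 54.6 from MT1X. RPKM here divides reads by all exon bases of a gene, 1299 for MT2A, 1889 for MT1F and 1773 for MT1X. Their main transcripts are shorter by unequal factors, at 786, 690 and 450 bases. The size of the RPKM sums and of each gene's share therefore depends on the length used.

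MT2A held 84.5%, 88.2% and 90.7% of summed family RPKM in controls and 72.4%, 69.5% and 70.2% in treated libraries. Its share was lower in every treated library than in any control, with means of 87.8 ± 3.12% and 70.7 ± 1.54% (SD, n = 3). The share of MT1F went from 5.16 ± 2.23% to 15.7 ± 1.17%, and that of MT1X from 4.85 ± 1.28% to 12.98 ± 1.27%. MT1G reached 0.143 ± 0.0665% in treated libraries. No test was run on these shares, because the genes were chosen together.

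**Figure D3:**
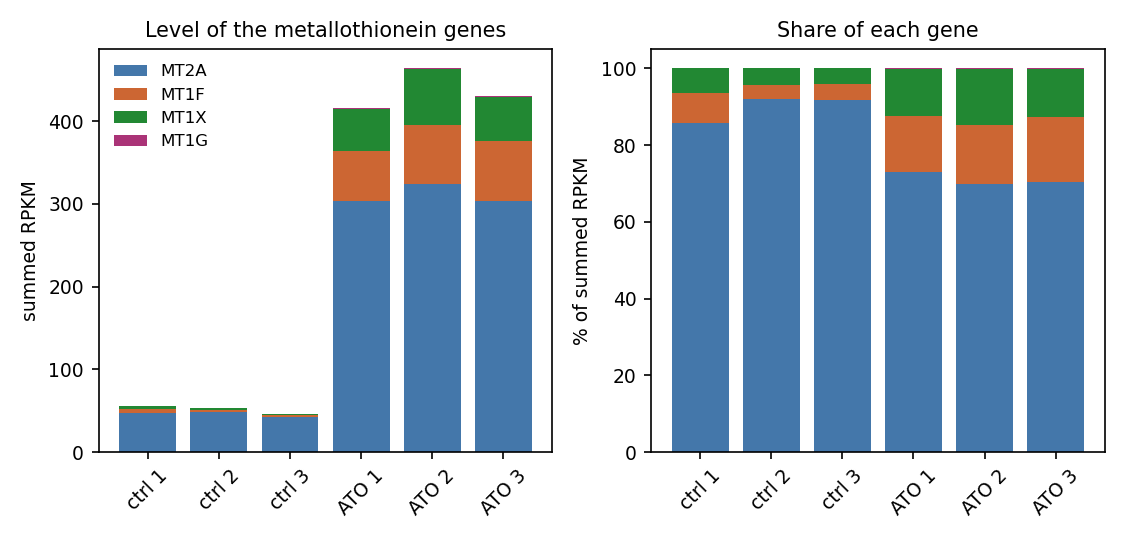
Summed RPKM (left) and percent of summed RPKM (right) of the 4 protein-coding metallothionein genes in each control (ctrl) and arsenic trioxide (ATO) library, stacked by gene. Over these 4 genes MT2A takes 85.8 to 91.9% in controls and 69.8 to 73.0% in treated libraries, while the MT1F and MT1X segments widen.

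Ratios within a library show the same shift without reference to depth. MT2A over MT1F in RPKM was 11.0, 24.6 and 21.7 in controls and 4.96, 4.49 and 4.15 in treated libraries. MT2A over MT1X was 13.4, 21.3 and 22.3 in controls and 5.98, 4.81 and 5.67 in treated libraries. Control library 1 was the lowest control in both ratios, still above every treated library. The ratio of MT1F to MT1X was 1.22, 0.866 and 1.03 in controls and 1.20, 1.07 and 1.37 in treated libraries, so the groups overlapped. Such ratios show unequal change and not that a gene kept its level.

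Placed in order of RPKM, the control libraries ran MT2A, MTF1, MT1F, MT1X and MT1G. MT1F and MT1X did not differ beyond their spread there, with ranges of 1.94 to 4.32 and 1.90 to 3.55 RPKM. In treated libraries the order was MT2A, MT1F, MT1X, MTF1 and MT1G. MT1F and MT1X again overlapped, at 61.1 to 73.0 and 50.7 to 67.2 RPKM, and the other neighbours in both orders did not overlap. Both orders, and which neighbours overlap, depend on the exon lengths by which RPKM divides. For MT1X these were 1773 bases against a main transcript of 450, and for MTF1 8024 against 7972. The orders on main transcript length were not tested.

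MTF1, the metal sensor, lies on chromosome 1 from 37809567 to 37859620 on the minus strand (ENSG00000188786). Its level was 7.51, 8.41 and 8.29 RPKM in control libraries 1 to 3 and 6.92, 6.28 and 6.53 RPKM in treated libraries 1 to 3. Each treated library was below each control, by a narrow margin at the nearest pair. The means were 8.07 ± 0.491 and 6.58 ± 0.326 RPKM (SD, n = 3), which leaves 81.5% of the control level. The log2 fold change was -0.26 ± 0.09 (SE, limma-trend with Benjamini-Hochberg adjustment, adjusted p = 0.0681), which did not pass the threshold.

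The call on MTF1 turned with the method. limma-voom on the whole reads recovered from the RPKM gave a log2 fold change of -0.29 with a Benjamini-Hochberg adjusted p of 0.0248, and the authors' deposited table gives -0.31 with an adjusted p of 0.0184. Over all alternatives the adjusted p ran from 0.0248 to 0.181 and the log2 fold change from -0.30 to -0.17. The reads behind it were 1217, 1307 and 1504 in controls and 1239, 1067 and 1152 in treated libraries. MTF1 overlaps the pseudogene AL929472.4 on the opposite strand (0.306 and 0.575 RPKM in control and treated means), and the library kit does not mark strand, so reads of the overlap cannot be told apart.

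Set against the sensor, MT2A over MTF1 in RPKM was 6.31, 5.75 and 5.09 in controls and 43.8, 51.5 and 46.3 in treated libraries. The control ratios lay far below every treated ratio. MTF1 is a protein whose activity is set by zinc binding, and its activity was not measured here.

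Other genes with a reported link to MTF1 were read from the same fit. Of 10 such targets outside the family, 7 were listed and 6 tested, of which 2 were called higher, 1 lower and 3 neither. Over all tested genes 12% were called higher and 13.4% lower. The median log2 fold change of the targets was 0.10 against -0.0033 over all tested genes. SLC30A1, which exports zinc across the plasma membrane and is a target that MTF1 activates, had 8.86, 9.24 and 9.92 RPKM in controls and 47.5, 54.7 and 36.7 RPKM in treated libraries. The treated libraries were all above the controls and differed more among themselves, and the log2 fold change was 2.18 (limma-trend with Benjamini-Hochberg adjustment, adjusted p = 0.00034).

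GCLC, the catalytic subunit of the enzyme that starts glutathione synthesis, rose, with means of 5.55 and 9.46 RPKM in control and treated libraries, a log2 fold change of 0.68 and a limma-trend adjusted p of 0.00979. SLC39A10, a zinc importer that MTF1 is known to repress, was the 1 target called lower. It had 20.4, 20.4 and 19.7 RPKM in controls and 6.29, 7.0 and 8.44 RPKM in treated libraries. The treated levels were far below the controls, and the log2 fold change was -1.37 (limma-trend adjusted p = 0.00054). SELENOH, a nuclear selenoprotein, had a log2 fold change of -0.21 that did not pass the test (adjusted p = 0.107).

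Among 25 zinc transporter genes (SLC30A exporters, SLC39A importers and TMEM163) 19 were listed and 16 tested. Called higher were 2, SLC30A1 and SLC30A6 (0.52, limma-trend adjusted p = 0.00552), a zinc carrier of the secretory pathway. Called lower were 5, all of the importer family: SLC39A10, SLC39A6 (-0.63), SLC39A11 (-0.68), SLC39A1 (-0.50) and SLC39A4 (-0.40), the last pair named after their values were seen. Most of the 16 tested genes belong to the importer family. The median log2 fold change was -0.19, and 9 genes, importers among them, were not called. These counts stand beside 12% called higher and 13.4% called lower over all tested genes. SLC39A4 stood nearest to the threshold (limma-trend adjusted p = 0.0476) and was not called when any 1 library was left out (0.0823 to 0.137).

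Metallothioneins also hold copper, and of 13 copper-handling genes 12 were listed and 11 tested, with 2 called higher, 1 lower and 8 neither (median log2 fold change 0.07), near the 25.4% called over all tested genes. SOD1, the copper and zinc superoxide dismutase, rose by 0.46 on the log2 scale, with means of 73.2 and 101.2 RPKM (adjusted p = 0.00506 by limma-trend). SLC31A1, the copper importer, had a log2 fold change of 0.24 (adjusted p = 0.0354) and was not called when any 1 library was left out (0.0516 to 0.107). SCO1, a copper chaperone of cytochrome oxidase assembly, fell from 11.5 to 6.96 RPKM (-0.65, adjusted p = 0.00254). CCS, the copper chaperone of SOD1, had a log2 fold change of 0.33 that did not pass the test (adjusted p = 0.0827).

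**Figure D4:**
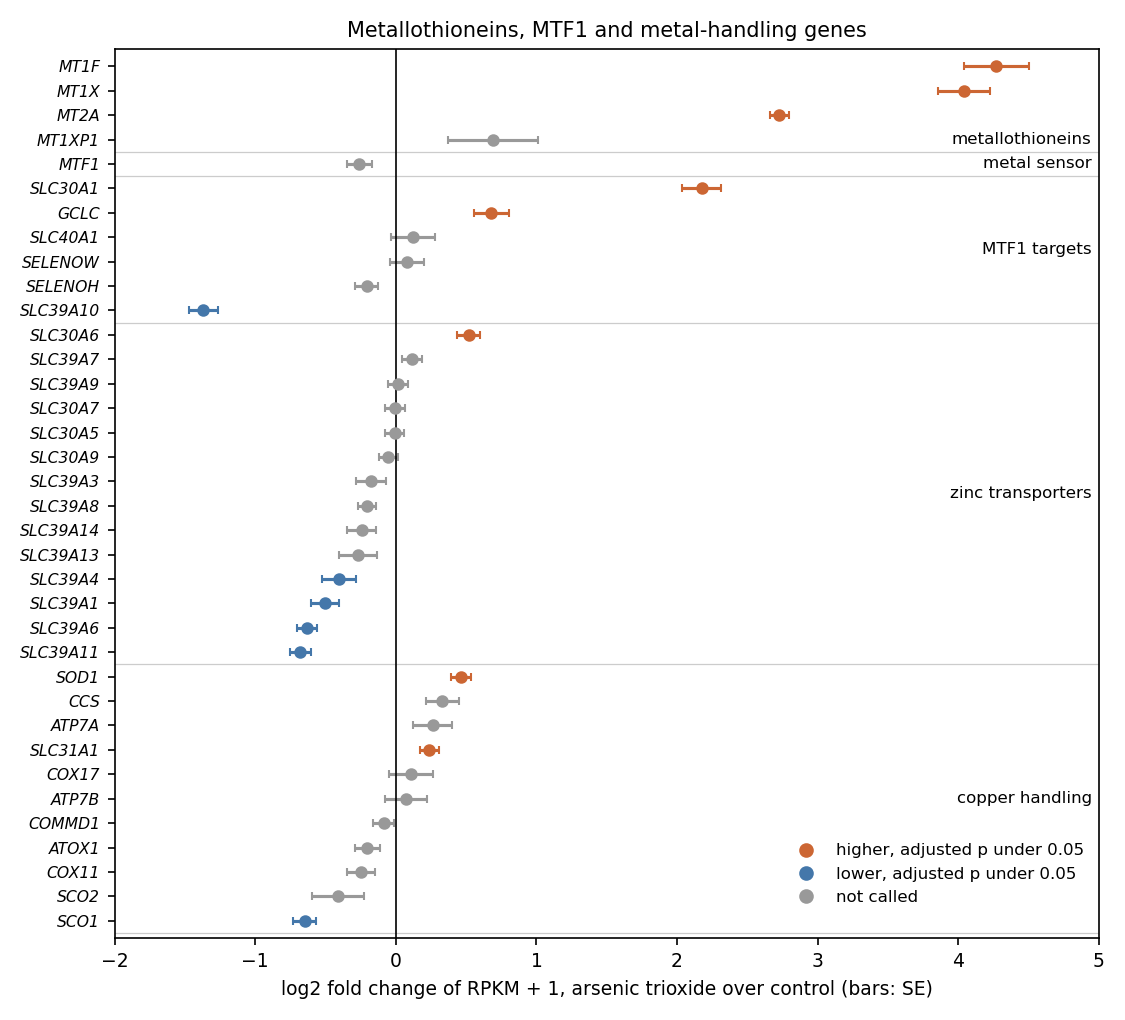
Fitted log2 fold changes of RPKM + 1 (arsenic trioxide over control, bars are SE) of the tested metallothioneins, MTF1, its reported targets, zinc transporters and copper-handling genes. MT1F, MT1X and MT2A lie farthest to the right, SLC30A1 follows at 2.18, SLC39A10 lies farthest to the left at -1.37, and most other genes are near 0.

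The position of the genes was examined next, since the members other than MTF1 share a cluster. On chromosome 16 the stretch from the start of MT4 at 56565049 to the end of MT1X at 56684196 is overlapped by 19 annotated genes, 16 of them metallothionein genes or pseudogenes and 11 of those protein-coding. Of 14 flanking genes fixed by name, 13 were listed and 10 tested, and limma-trend called 0 higher and 0 lower (median log2 fold change 0.048). Over all tested genes limma-trend called 12% higher and 13.4% lower. At an unadjusted p under 0.05, 3 of the 10 passed (CPNE2, NUP93 and NLRC5), and so did at least 25.4% of all tested genes. The same 3 genes were called by limma-voom, CPNE2 higher and the others lower. Over all 16803 tested genes limma-voom called 2507 higher and 2738 lower.

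Within 1 Mb of the MT2A start and outside the family, 24 genes were tested, and their log2 fold changes ran from -0.44 to 1.38. Called higher were 3 and lower 0, beside 12% and 13.4% of all tested genes. The 3 are named here after their values were seen: CES1 (0.51), a carboxylesterase, CCDC102A (0.84) and the non-coding RNA RP11-249C24.10. RP11-249C24.10 is annotated on the minus strand from 56609501 to 56611375, with 3 bases between it and the end of MT2A. It had 0, 2 and 2 reads in controls and 25, 25 and 10 in treated libraries, with a log2 fold change of 1.38. It reached the minimum mean of 1 RPKM only through the treated libraries (2.07 RPKM against 0.144), so its call is no independent support. Since the kit leaves strand unmarked, reads that run past the annotated end of MT2A cannot be told apart from its own.

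**Figure D5:**
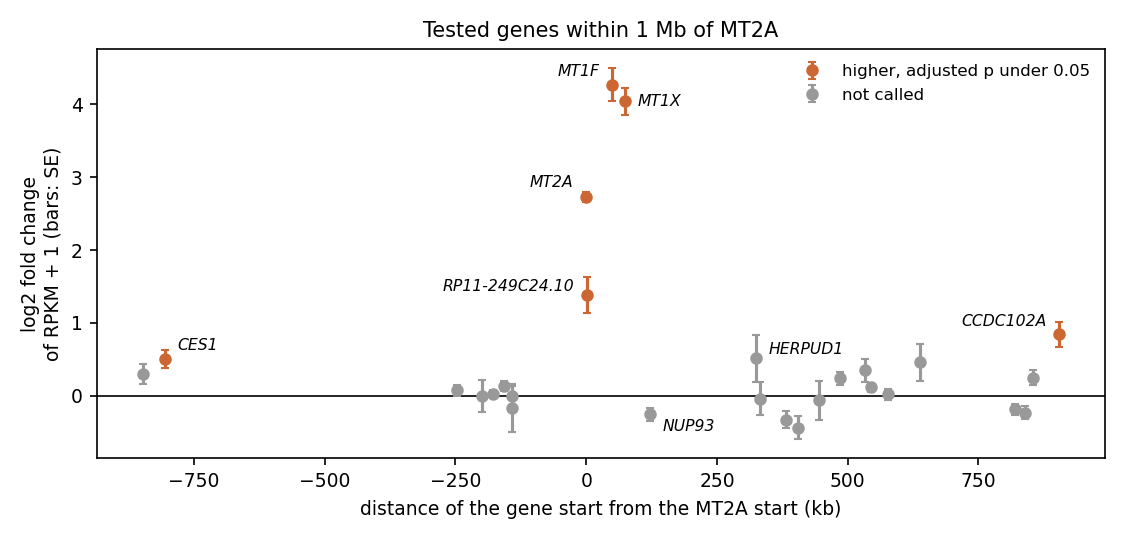
Log2 fold change of RPKM + 1 (bars are SE) of every tested gene within 1 Mb of MT2A against the distance of its start from the MT2A start in kb. MT1F (4.27), MT1X (4.04) and MT2A (2.73) stand above the rest near 0 kb, RP11-249C24.10 beside MT2A is at 1.38, and the other genes lie between -0.44 and 0.84.

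Around MTF1 on chromosome 1, 12 neighbouring genes were listed and 10 tested, with 2 called higher, 1 lower and 7 neither (median log2 fold change 0.02), again near the 25.4% called over all tested genes. INPP5B, an inositol phosphatase, had a log2 fold change of 0.49 (limma-trend adjusted p = 0.0062) and FHL3, a LIM domain protein, 0.56 (adjusted p = 0.0162, and 0.054 without treated library 1). YRDC, an enzyme of tRNA modification with 1381 bases between its gene and MTF1, had -0.47 (adjusted p = 0.00775). MTF1 itself was at -0.26.

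Genes with the library pattern most like a member were found by the Euclidean distance between centred log2(RPKM + 1) profiles over the 6 libraries. For MT2A the 5 nearest tested genes outside the members were SEL1L3 (distance 0.239), HSPA1A (0.342), FAM129A (0.400), HSPA1B (0.475) and RP11-302F12.10 (0.563). HSPA1A and HSPA1B encode stress-inducible heat shock proteins, and reads of these near-identical copies are uncertain. Within the family MT1F and MT1X were nearest to each other (0.456), while MT2A lay 1.67 from MT1X and 2.01 from MT1F. For MTF1 the nearest were KCTD3 (0.036), INCENP (0.062), POLG (0.065), IFT140 (0.074) and GGA2 (0.078). The distances describe these 6 libraries and carry no test.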

How the data were processed

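Total RNA of 3 control and 3 arsenic trioxide libraries was sequenced. The build hg38 and the tools HTSeq, DESeq2 and HISAT2 2.1.0 are listed, without parameters, per the submitters' processing notes. Duplicate reads were removed, per the file headers. The authors deposited RPKM per gene and library, with a mean normalized signal, a log2 fold change, a test score and p-values, raw and adjusted, of their own comparison, which were used here only as quoted, except the signal, which settled exon lengths.

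Reads were recovered from RPKM with GENCODE 29 exon lengths: all values of a gene were whole within 0.01 reads for 93.03% of genes, and for 100% once lengths were settled. Libraries of 1 group differed by chi-square values of 5.51 to 13.57 per degree of freedom, so none was a copy. Log2(RPKM + 1), which understates folds of low genes, was fitted with limma-trend (limma 3.58.1, R 4.3.3) on all 6 libraries for genes of mean at least 1 RPKM, with treatment as the only term and Benjamini-Hochberg adjustment at 0.05. The fit was checked on simulated data. Alternatives were pseudocounts of 0.1 and 5, no filter, 2 rescalings, limma-voom on recovered reads, a replicate block and leaving out each library.

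The genes and lists were chosen with earlier results of these data known. Named were all members, other listed family genes, up to 4 tested genes of smallest p per list and any called against the majority, and the 5 genes most like MT2A and MTF1. Marker genes and other names were chosen after their values were seen. Coordinates are from GENCODE 29 on GRCh38, counted from 1, and promoters are from RefSeq.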

Additional observations from a re-analysis of the deposited data

How the results depend on the processing

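The rises of MT2A (log2 fold change 2.63 to 2.76), MT1F (3.26 to 4.75) and MT1X (3.03 to 4.51) kept their direction and their call under all 13 alternatives. MTF1 kept its direction under all 13 and passed the threshold under limma-voom alone. The labels do not say whether the replicate numbers pair the libraries. Deviations from the group means of same-numbered libraries correlated at -0.085, 0.148 and -0.083. Control library 1 correlated best with treated library 3 (0.221). With 3 libraries per group, such correlations cannot show whether the libraries were paired. With the replicate block, 1460 genes were called higher and 1616 lower, against 2021 and 2252 without it, and MTF1 had an adjusted p of 0.145 (limma-trend). With each library left out, 1302 to 1511 genes were called higher and 1419 to 1906 lower. limma-voom called 2507 higher and 2738 lower.

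Copper-handling genes called higher numbered 1 with median-ratio factors, upper quartile factors or the replicate block and whichever library was left out, against 2. ATP7A was called higher as well by limma-voom (adjusted p = 0.0493), and over all alternatives the number was 1 to 3. Zinc transporters called lower numbered 4 to 6 over all alternatives, against 5. Of the genes flanking the cluster, limma-voom called 1 higher and 2 lower, and 0 to 1 were lower with a library left out, against 0 and 0. Of the MTF1 neighbours, 1 to 2 were higher with a library left out, against 2, and lower were 3 without the filter and 2 by limma-voom, against 1. By reads in place of RPKM, MT2A took 63.5% of family reads in treated libraries, against 70.7% of RPKM. Depth limits MT1G and MT1XP1, with 31 and 29 reads over the treated libraries, and the cause of the changed calls was not tested.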

Other observations

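A pseudogene outside the family, DPPA2P4, lies on the strand of MT1X with 2654 bases between them (chromosome 16, 56686851 to 56688052), and it was singled out after its values were seen. The span of AC026461.1, on the same strand from 56682470 to 56687807, covers those bases and overlaps DPPA2P4. Reads of the overlap cannot be told apart. DPPA2P4 had 0, 1 and 1 reads in controls and 6, 20 and 7 reads in treated libraries. Its mean lay below the minimum of the test, and the authors' deposited table gives DPPA2P4 a log2 fold change of 3.98 with an adjusted p of 0.0153. DPPA2P4 reached the lowest listed sum, 21 reads, only through the treated libraries, so these values are no independent support.

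The metal response core was also counted over all tested genes with a promoter entry, by call. At least 1 core was found in 29.8% of the promoters of genes called higher (550 of 1845), in 33.0% of those called lower and in 31.7% of those not called. At least 4 cores, the number in MT1X, were found in 0.54%, 0.69% and 0.47%. These are shares over promoters and carry no test.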
